A study of Mus musculus with 8 samples.

Results

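Frmpd1, Gfpt2 and Adgra3 are 3 protein-coding genes, of 55450 genes in the count tables, whose RNA was lower in nuclei of cortical GABAergic neurons carrying a mutant thyroid hormone receptor. They were chosen by symbol, after their levels in these libraries were known, as abundant genes with a tight fall in the mutants. Their difference between the groups is therefore described here with no test. The word tight held for Gfpt2 and Adgra3 in both groups and for Frmpd1 in the mutants, but the 4 controls of Frmpd1 spread widely.

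The libraries hold nuclear RNA of fluorescent nuclei sorted from the frozen cerebral cortex of juvenile mice, with an individual cortex behind each. A Cre driver for GABAergic neurons switched on 2 loxP-controlled constructs. These were a nuclear fluorescent reporter in both groups and, in mutants only, a Thra mutation that yields a dominant negative receptor. Controls are labelled Thra+/+ and mutants Thra+/AMI, so the mutant receptor was limited to the Cre-expressing cells and stood beside a normal allele. Of 4 control and 4 mutant samples, mutant 10 repeats mutant 7 in all 21975 genes with a symbol of their own and a count, differing in 0, so both were counted as 1 sample and 4 controls (1 to 4) were set against 3 mutants (6, 7 and 8). Nothing says that the samples came from separate litters or sorts, so p-values measure only the spread between these libraries.

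Total counts ran from 10747169 to 13804734 reads per library. Of the 6 general GABAergic markers 5 were tested (Dlx1 is listed at 0) and 0 were called in edgeR's quasi-likelihood test, DESeq2 or limma-voom, with 0 at an unadjusted p under 0.05. Their summed level overlapped between the groups, from 2348 to 2618 CPM in controls and 2253 to 2702 CPM in mutants. CPM is the usual scaling of counts to the library total, here with edgeR's TMM factor. The controls differed with gene length: the median log2 deviation of genes over 100 kb from their mean over the 7 libraries was -0.35 in control 1 and 0.36 in control 4, and -0.06 to 0.07 in the other libraries. Reads of 4 Y-linked genes numbered 4 in control 4 and 3 in mutant 8, and 5094 to 6644 elsewhere.

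The members have unrelated roles. Gfpt2 encodes an isoenzyme of glutamine-fructose-6-phosphate transaminase, which opens the hexosamine pathway by joining fructose 6-phosphate and glutamine. That pathway ends in UDP-GlcNAc, the sugar donor for N-glycans, hyaluronan and O-GlcNAc on nuclear and cytoplasmic proteins. Adgra3 encodes an orphan adhesion G protein-coupled receptor, also called GPR125, of the same subfamily as the Wnt7 co-receptor Adgra2. Frmpd1 encodes a scaffold with a FERM and a PDZ domain that binds Gpsm1 (AGS3), a regulator of the Gi class of G proteins.

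The stretch before the transcription start of each member is shown to describe the 3 genes. They lie on 3 chromosomes, and their shared fall in the mutants is how they were chosen. The sequences are RefSeq's, on build GRCm38.p6, and run in the direction of transcription from 250 bases before the RefSeq start to the last base before both the RefSeq and the GENCODE start. Capitals mark matches on either strand to the GC box GGGCGG, to CCAAT or to TATAA.
Frmpd1, chr4:45184656-45184874, plus strand: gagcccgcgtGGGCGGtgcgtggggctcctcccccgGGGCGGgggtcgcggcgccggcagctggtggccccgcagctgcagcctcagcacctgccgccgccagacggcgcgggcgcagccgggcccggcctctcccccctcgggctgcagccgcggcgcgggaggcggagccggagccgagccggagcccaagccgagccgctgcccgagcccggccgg
Gfpt2, chr11:49793905-49794154, plus strand: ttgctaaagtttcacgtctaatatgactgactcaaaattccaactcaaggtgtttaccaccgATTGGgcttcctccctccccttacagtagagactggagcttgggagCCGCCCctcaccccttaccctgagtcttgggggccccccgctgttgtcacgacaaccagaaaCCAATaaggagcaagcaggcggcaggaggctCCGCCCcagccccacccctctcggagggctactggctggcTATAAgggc
Adgra3, chr5:50059007-50059246, minus strand: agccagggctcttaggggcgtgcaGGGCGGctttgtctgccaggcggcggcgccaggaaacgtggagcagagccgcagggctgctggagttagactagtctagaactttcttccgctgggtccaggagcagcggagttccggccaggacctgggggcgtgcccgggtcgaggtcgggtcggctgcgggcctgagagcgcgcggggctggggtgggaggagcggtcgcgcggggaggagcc

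The promoters were of different kinds. The 250 bases of Frmpd1 had 84.4% G and C and 38 CpG dinucleotides, a G and C share above that of 99.8% of the 32851 windows of this length in the RefSeq table. Adgra3 had 71.6% and 25 CpG, whereas Gfpt2 had 57.6% and 8 CpG, beside medians of 52.4% and 6 over all windows. Gfpt2 held 1 TATAA match, 5 to 9 bases before its RefSeq start and 28 to 32 bases before its GENCODE start, and 2 CCAAT matches. Neither Frmpd1 nor Adgra3 held these letters, which 22.78% (TATAA) and 33.85% (CCAAT) of all windows hold. All 3 members held a GC box, as 32.74% of windows did. The hexamer AGGTCA, to which thyroid hormone receptors bind, was in 0 of the 3 windows and in 14.02% of all windows. A direct repeat of this hexamer with 4 bases between the copies was in 0 of the 3 and in 0.02% of all. These counts say only which letters lie in these windows.

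Gfpt2 (ENSMUSG00000020363.6, GRCm38 chromosome 11, 49794178 to 49838613, plus strand) spans 44.44 kb with up to 19 exons in a transcript, and overlaps no other annotated gene. Its level was 111.2, 103.9, 97.5 and 97.5 CPM in controls 1 to 4, and 33.2, 32.0 and 31.8 CPM in mutants 6, 7 and 8. The lowest control lay 2.94 times above the highest mutant, and the mutants were nearly alike. The control mean was 102.5 ± 6.52 CPM (SD, n = 4), and the mutant mean of 32.3 ± 0.752 CPM (SD, n = 3) was 31.5% of it. On the log2 scale the fold change, here always mutant over control, was -1.67 (SE 0.11). Each control held 1209 to 1402 reads of this gene and each mutant 349 to 424.

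Adgra3 (ENSMUSG00000029090.12, GRCm38 chromosome 5, 49959956 to 50059006, minus strand) spans 99.05 kb with up to 19 exons and overlaps no annotated gene. It was at 74.7, 77.9, 72.6 and 68.8 CPM in controls 1 to 4, and at 24.3, 23.9 and 21.6 CPM in mutants 6, 7 and 8. Control 4 and mutant 8 were the lowest of their groups, and a gap of 2.84 times separated the groups. The control mean was 73.5 ± 3.83 CPM (SD, n = 4), and the mutant mean of 23.2 ± 1.44 CPM (SD, n = 3) was 31.6% of it. Its log2 fold change was -1.66 (SE 0.11), with 853 to 1031 reads per control and 260 to 310 per mutant.

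Frmpd1 (ENSMUSG00000035615.12, GRCm38 chromosome 4, 45184875 to 45285936, plus strand) spans 101.1 kb with up to 16 exons. Its level was 89.7, 110.4, 114.8 and 150.1 CPM in controls 1 to 4, and 18.2, 17.6 and 16.1 CPM in mutants 6, 7 and 8. The controls were far apart, with control 1 lowest and control 4 highest, while the mutants were close together, and the lowest control was 4.94 times the highest mutant. The control mean was 116 ± 25.1 CPM (SD, n = 4), and the mutant mean of 17.3 ± 1.06 CPM (SD, n = 3) was 14.9% of it. The log2 fold change was -2.75 (SE 0.17), with 1131 to 1861 reads per control and 192 to 232 per mutant. The antisense gene Frmpd1os lies over 9.17% of the span of Frmpd1 and touches 0 bases of its exons. It is listed at 0 in all 7 libraries, as are Dlx1, Gfap and Xist, so its level is not known.

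In all 3 members each mutant lay below each control, which the choice of members fixed, and the same held for 10.7% of the 16448 tested genes. Each of the 12 pairs of a control and a mutant gave a ratio of 0.29 to 0.34 for Gfpt2, 0.28 to 0.35 for Adgra3 and 0.11 to 0.20 for Frmpd1. Counted from the lowest log2 fold change, Frmpd1 ranked 31, Gfpt2 122 and Adgra3 123 of the 16448 tested genes. In bulk nuclei, fewer cells of a type that expresses a gene and less RNA per cell cannot be told apart.

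**Figure D1:**
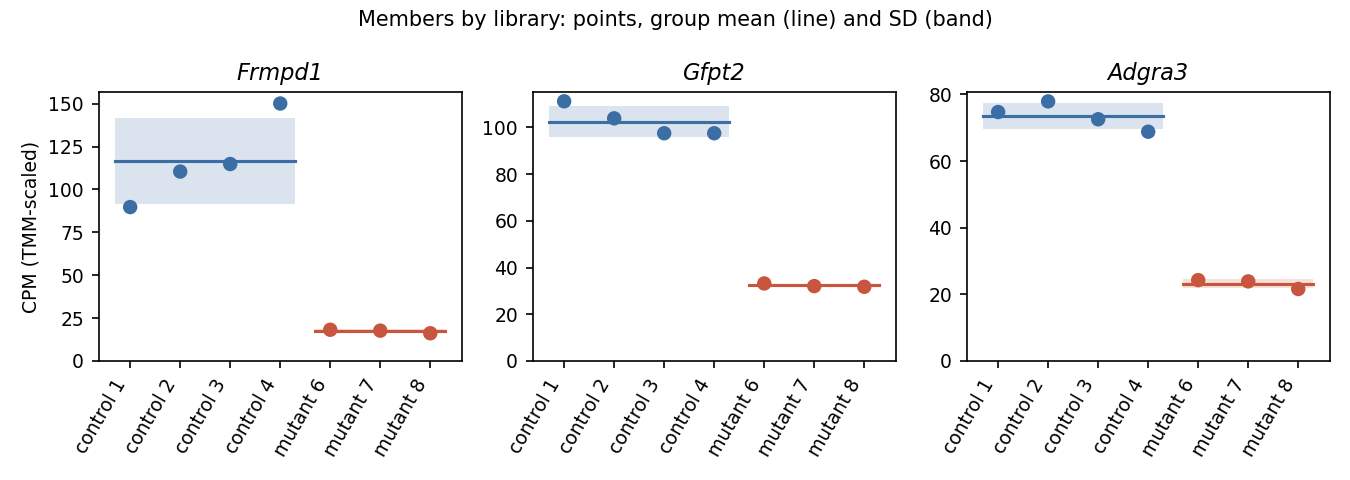
TMM-scaled CPM (vertical axis, from 0) of Frmpd1, Gfpt2 and Adgra3 in each of the 7 libraries (horizontal axis), controls in blue and mutants in red. Lines are group means and bands the SD. Mutants lie below controls in each panel, and the controls of Frmpd1 spread from 89.7 to 150.1 CPM.

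The spread over the controls separates Frmpd1 from the other members. The members were chosen for a tight fall, so their spread beside that of other genes is a description only. The coefficient of variation over the controls was 6.36% for Gfpt2 and 5.21% for Adgra3, and the median of the 2916 and 3174 tested genes within 1.5 times their mean level was 11.9% and 12.3%. For Frmpd1 it was 21.6%, against a median of 11.9% in 2907 such genes. Among mutants the 3 members had 2.33%, 6.21% and 6.13% in the order Gfpt2, Adgra3, Frmpd1. The medians over mutants in the same sets of genes were 7.12%, 7.73% and 7.13%. These sets were matched on the mean over all 7 libraries, which lies above the level of each member in mutants. They are therefore not matched to the members in the mutants.

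Frmpd1 deviated from the control mean by -0.35 (log2) in control 1 and 0.39 in control 4. The medians of genes over 100 kb, taken from the mean over the 7 libraries, were -0.35 and 0.36 there. Those of genes from 40 to 110 kb, which include all 3 members, were -0.13 and 0.10. Adgra3, of nearly the same span as Frmpd1, was at 74.7 CPM in control 1 and 68.8 CPM in control 4. The cause of the spread of Frmpd1 over the controls was not tested. With an offset for genomic length the log2 fold change of Frmpd1 was -2.74 and its SE went from 0.17 to 0.11, while the SE of Adgra3 went from 0.11 to 0.13. Without controls 1 and 4 together it was -2.70 (SE 0.11), with -1.64 for Gfpt2 and -1.70 for Adgra3. Without the libraries that lacked Y-linked reads, control 4 and mutant 8, the values were -2.55, -1.68 and -1.64 for Frmpd1, Gfpt2 and Adgra3.

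Levels were set against each other per kilobase of exon, in CPM per kb. In controls Frmpd1 (21.8 ± 4.71, SD, n = 4) and Gfpt2 (18.3 ± 1.17) did not differ beyond their spread, with ranges of 16.9 to 28.2 and 17.4 to 19.9, and Adgra3 (9.06 ± 0.472) lay below both. In mutants Gfpt2 was highest (5.78 ± 0.135, SD, n = 3), above Frmpd1 (3.25 ± 0.199) and Adgra3 (2.86 ± 0.178). Frmpd1, at 3.03 to 3.41, and Adgra3, at 2.66 to 2.99, lay close together there without overlap. On this scale Frmpd1 went from the level of Gfpt2 in controls to near that of Adgra3 in mutants. The order of the genes depends on the division by exon length, and whether intron reads were counted is not known.

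Gfpt2 and Adgra3 kept a nearly constant proportion. The CPM of Gfpt2 divided by that of Adgra3 was 1.49, 1.33, 1.34 and 1.42 for controls 1 to 4, with a mean of 1.40. For mutants 6, 7 and 8 it was 1.37, 1.34 and 1.47, with a mean of 1.39. Frmpd1 divided by Adgra3 was 1.20, 1.42, 1.58 and 2.18 in the controls and 0.748, 0.738 and 0.746 in the mutants. The first ratio overlapped between the groups, and the second did not. This largely restates the log2 fold changes of -1.67 (Gfpt2), -1.66 (Adgra3) and -2.75 (Frmpd1), which were known when the members were chosen.

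Of the 6 closest paralogs of the members, 0 were called by edgeR's quasi-likelihood test (adjusted p 0.424 to 0.979), DESeq2 or limma-voom, with 0 at an unadjusted p under 0.05. Gfpt1, the other isoenzyme that starts the hexosamine pathway, was at 70.4, 70.1, 66.0 and 60.9 CPM in controls 1 to 4 and at 58.0, 66.0 and 64.6 CPM in mutants 6, 7 and 8. These ranges overlap, and the log2 fold change was -0.09 (SE 0.11, edgeR adjusted p 0.693). Of the 2 isoenzymes together, per kb of exon, Gfpt2 made up 74.0%, 72.8%, 72.7% and 74.3% in controls and 50.8%, 46.7% and 47.0% in mutants. This share depends on the division by exon length, and whether intron reads were counted is not known.

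In subfamily A of the adhesion receptors, Adgra1, an orphan receptor enriched in brain, had a log2 fold change of 0.02 (SE 0.14), and Adgra2 had -0.07 (SE 0.17). Adgra3 made up 25.2%, 23.3%, 20.7% and 17.4% of the 3 genes per kb in controls, and 7.93%, 8.20% and 7.40% in mutants. The genes related to Frmpd1, namely Frmpd2 (0.33, SE 0.33), Frmpd3 (0.23, SE 0.15) and the synaptic scaffold gene Frmpd4 (0.02, SE 0.23), were not called either. The share of Frmpd1 among these 4 genes per kb was 21.7% to 25.9% in controls and 4.16% to 4.37% in mutants. This share varied less over the controls than the CPM of Frmpd1 did, and Frmpd4 itself ran from 378.4 CPM in control 1 to 829.9 CPM in control 4. None of the 75-base words in the annotated transcripts of the members (5249 for Frmpd1, 5572 for Gfpt2 and 8035 for Adgra3) occurs in a transcript of another gene, 75 bases being the read length per the labels.

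**Figure D2:**
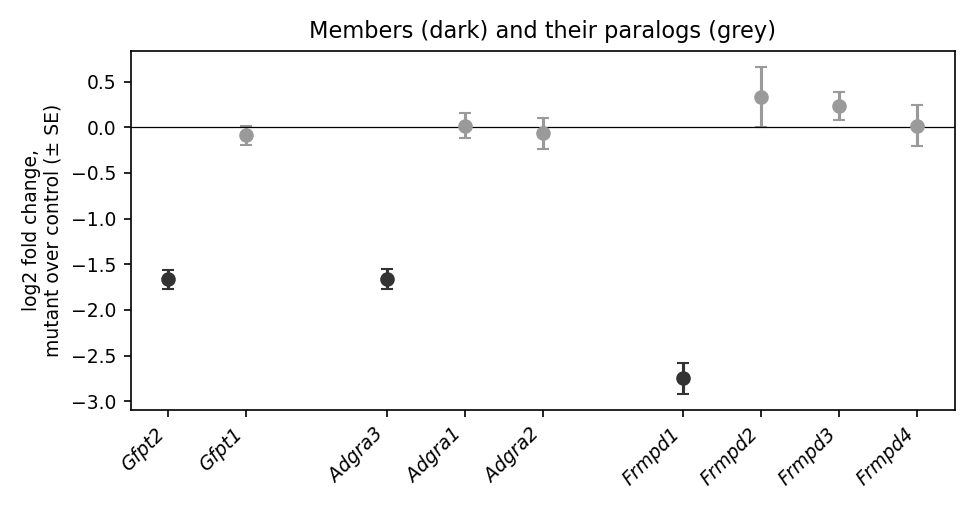
Log2 fold change with its SE (vertical axis) for the 3 members in dark and their 6 paralogs in grey (horizontal axis). The members lie at -2.75, -1.67 and -1.66, and the paralogs between -0.09 and 0.33.

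Of the 6 nearest tested genes beside the members on the chromosomes edgeR, DESeq2 and limma-voom called 0, and 2 had an unadjusted p under 0.05 in edgeR. For Gfpt2 these were Cnot6 (log2 fold change 0.11, SE 0.14), of the CCR4-NOT deadenylase, and the kinase gene Mapk9 (-0.26, SE 0.12), which begins 8.14 kb after it. For Frmpd1 they were Tomm5 (-0.16, SE 0.16), of the mitochondrial import complex, and Trmt10b (-0.02, SE 0.12), a tRNA methyltransferase gene. Beside Adgra3 lie 2 thinly counted loci of the GENCODE class TEC, Gm42461 (-0.56, SE 0.50) and Gm42460 (-1.12, SE 0.42). Gm42460 starts 0.09 kb before Adgra3 on the opposite strand and had 32, 51, 33 and 19 reads in controls and 10, 21 and 12 in mutants, overlapping between the groups in reads. Its adjusted p in edgeR's test was 0.127, and 0.0363 without control 4 and 0.0181 without controls 1 and 4, with a range of 0.0181 to 0.368 over the settings tried.

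The pathways of the members were followed through 7 lists of 124 genes, of which 106 were tested and the members are not part. In edgeR's test 9.42% of all tested genes were called (adjusted p under 0.05), 4.78% lower and 4.63% higher in mutants. In the lists 1 gene was lower (0.943%) and 11 were higher (10.4%), with a median log2 fold change of 0.05 beside -0.01 for all tested genes. The count of 12 changed whichever library was left out. It was 19 without control 1, 18 without control 4 and 5 without control 2 or control 3, and 4, 4 and 3 without mutants 6, 7 and 8. It was 20 with the DESeq2 Wald test, 22 with the offset for genomic length, 25 without controls 1 and 4, and 8 without control 4 and mutant 8.

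The hexosamine pathway beyond Gfpt2 had smaller changes than Gfpt2, which was chosen for its fall. Of 16 listed genes 13 were tested, with log2 fold changes from -0.31 to 0.41 and a median of 0.04. By edgeR, DESeq2 and limma-voom 0 were called, and 1 had an unadjusted p under 0.05 in edgeR. The lack of calls does not show that levels were unchanged. Of the 13, the CPM of the groups did not overlap in 3 that were lower (Ogt, Uap1 and Gnpda1) and 1 that was higher (Nagk). The shares over all tested genes were 10.7% lower and 11.2% higher. Ogt, which places O-GlcNAc on proteins, had a mean of 929.6 ± 54.5 CPM over controls (SD, n = 4) and of 869.5 ± 31.4 CPM over mutants (SD, n = 3). Mgea5, which removes it, had 159.8 ± 9.16 and 163.8 ± 8.06 CPM. The next enzymes of the route to UDP-GlcNAc, Pgm3 (0.16, SE 0.13) and Uap1 (-0.23, SE 0.13), were not called, and Gnpnat1 is listed at 0. With the offset for genomic length 1 gene of this list was called.

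Among 14 tested genes that use UDP-GlcNAc, such as N-glycan branching enzymes and hyaluronan synthases, Eogt was higher (0.42, SE 0.11, edgeR adjusted p 0.0302). It encodes an O-GlcNAc transferase of the endoplasmic reticulum. Among 7 tested genes of glucose uptake and early glycolysis, 2 of the phosphofructokinase genes, which act on the same fructose 6-phosphate as Gfpt2, were higher. Pfkp was at 610.0 to 753.0 CPM in controls and 1104 to 1142 CPM in mutants (log2 fold change 0.68, SE 0.15, edgeR adjusted p 0.0136). Pfkl was at 64.0 to 87.2 and 108.1 to 133.8 CPM (0.69, SE 0.13, edgeR adjusted p 0.00495). The third, Pfkm, had -0.31 (SE 0.14) and was not called.

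Around Frmpd1, its partner Gpsm1 was higher in mutants, at 84.2 to 99.3 CPM in controls and 110.2 to 129.4 CPM in mutants (0.41, SE 0.11, edgeR adjusted p 0.033). The related Gpsm2 (LGN) was at 18.2 to 27.1 and 14.0 to 16.3 CPM and was not called (-0.55, SE 0.16, edgeR adjusted p 0.0538). Of 18 tested genes of this complex 3 passed, all higher, the others being Rgs14 (1.21), another regulator with a Gi-binding motif, and the polarity gene Pard6g (0.55). The median was 0.02. The 13 genes listed for the FERM family, a selection of it, ran from -0.33 to 0.77 with a median of 0.02. Of these edgeR, DESeq2 and limma-voom called 0, and 2 had an unadjusted p under 0.05 in edgeR. Called genes of this list numbered 1 without control 1, without control 4 and without control 4 and mutant 8, and 2 without controls 1 and 4.

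Around Adgra3, 23 adhesion receptor genes were tested, and 2 passed, both higher. Adgrg1, a receptor known from cortical development and myelination, was at 11.0 to 14.8 CPM in controls and 21.9 to 27.9 CPM in mutants (1.05, SE 0.16, edgeR adjusted p 0.0014). The latrophilin gene Adgrl2 was also higher (0.42, SE 0.11). In the list of planar polarity genes and Dishevelled partners 18 were tested, 1 lower and 3 higher. Wnt7a, a ligand sensed through Adgra2 and Reck, was at 5.14 to 7.00 CPM in controls and 16.0 to 21.5 CPM in mutants (1.66, SE 0.18, edgeR adjusted p 0.000159). Wnt7b (1.14, SE 0.27) and the polarity scaffold Scrib (0.45, SE 0.13) were higher and the receptor gene Fzd6 (-0.90, SE 0.24) lower. The values of Reck (0.13, SE 0.12), Dvl1 (0.19, SE 0.15) and Vangl2 (-0.20, SE 0.21) did not pass.

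Pfkl, Adgrg1 and Wnt7a passed in every fit tried, and the other 9 called genes of the lists lost the call in some. Rgs14 lost it without mutant 8 (with or without control 4), and Pfkp without control 3 or any 1 of the 3 mutants. Gpsm1, Pard6g and Adgrl2 lost it without control 2, control 3 or any 1 mutant. Eogt, Scrib, Wnt7b and Fzd6 lost it in the same fits and without control 4 and mutant 8 together, and Fzd6 also without control 1.

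**Figure D3:**
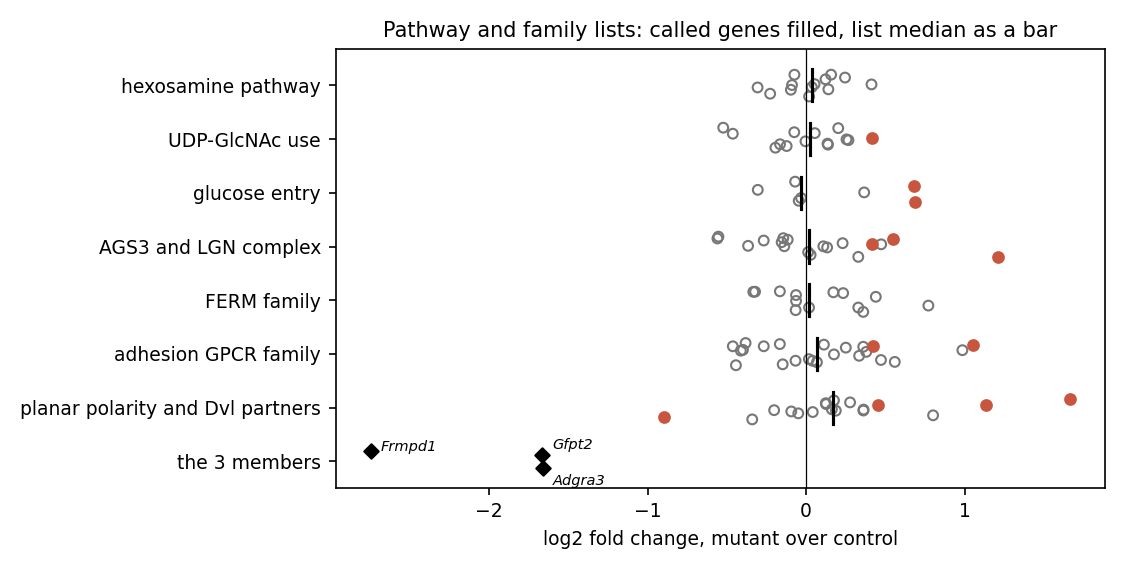
Log2 fold change (horizontal axis) of the tested genes in the 7 pathway and family lists, with the 3 members in the lowest row as diamonds. Filled points are called genes, open points are not, and bars are list medians, which lie between -0.03 and 0.17. The lowest listed gene was Fzd6 at -0.90 and the highest Wnt7a at 1.66. The members were chosen for their fall and the listed genes were not.

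Other genes with profiles like the members were ranked by the root mean square (RMS) difference between log2 CPM profiles, each centred on its mean over the 7 libraries, among 11796 other genes whose mean reached 5 CPM. The contrast between groups dominates this measure, so the ranks are descriptions. By the RMS difference Gfpt2 and Adgra3 were each other's closest gene, at 0.06 log2 units (Pearson's r 0.997 over 7 libraries, which share the contrast). By Pearson's r Adgra3 ranked 4 for Gfpt2, and Gfpt2 ranked 2 for Adgra3. For both, the next 4 genes by RMS difference were Rgcc, Gabrd, Trib1 and Gls2. Gls2 encodes a glutaminase and was at 82.9 to 89.1 CPM in controls and 22.2 to 24.3 CPM in mutants (RMS 0.13 from both). Gabrd, the delta subunit of extrasynaptic GABA-A receptors, was at 260.7 ± 33.2 and 74.8 ± 6.82 CPM. Rgcc, a cell cycle regulator gene, lay 0.10 from Gfpt2 and 0.12 from Adgra3, and the pseudokinase gene Trib1 0.13 and 0.15.

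Frmpd1 had other neighbours in this ranking. Arhgap22, a GTPase-activating protein for Rac, was closest at 0.12, with 29.7, 42.9, 42.6 and 65.4 CPM in controls 1 to 4 and 6.89, 5.97 and 6.18 CPM in mutants. The perineuronal net link protein gene Hapln4 (0.26), Fam163a (0.26), the kinase gene Hunk (0.28) and the formin gene Fmn1 (0.31) followed. Of these 5 genes all but Hapln4 were, like Frmpd1, lowest in control 1 and highest in control 4 among the controls. Frmpd1 and those 4 genes each span more than 100 kb, and Hapln4 does not. The median of all genes over 100 kb had the same order, with -0.35 in control 1 and 0.36 in control 4. Whether the likeness to Frmpd1 goes beyond this trend of the libraries was not tested. Of the span of Fmn1, 19.71% is shared with other annotated genes, so its counts are uncertain. Adgra3 ranked 41 and Gfpt2 44 for likeness to Frmpd1. By Pearson's correlation in place of the RMS difference, 2 of the 5 genes were shared for Frmpd1, 2 for Gfpt2 and 1 for Adgra3.

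**Figure D4:**
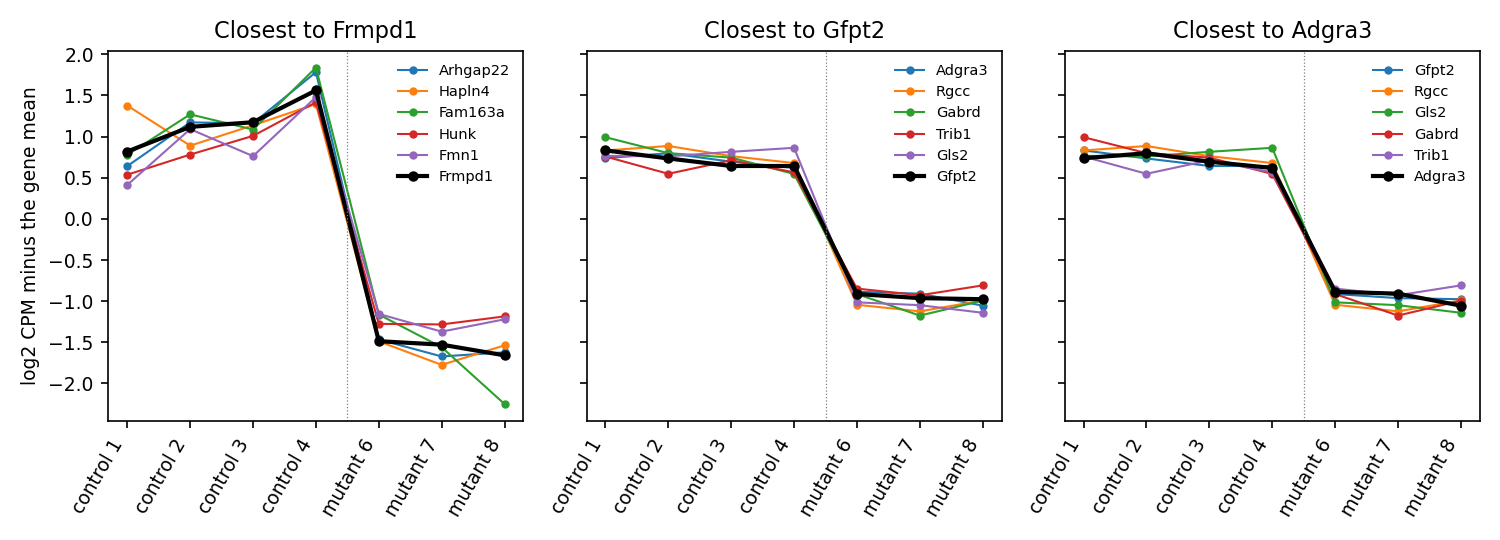
Log2 CPM minus the mean of each gene (vertical axis) over the 7 libraries (horizontal axis) for each member in black and its 5 closest genes in colour. The dotted line parts controls from mutants. Gfpt2 and Adgra3 share 4 neighbours. Among the controls Frmpd1 and 4 of its 5 closest genes, all but Hapln4, are lowest in control 1 and highest in control 4. Those 4 genes and Frmpd1 span more than 100 kb, as Hapln4 does not.

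Markers of the classes that sorted nuclei could hold were measured beside these values. Of 8 parvalbumin neuron markers 3 were called, Pvalb, Syt2 and Kcnc1, all lower in edgeR's test, beside 9.42% of all tested genes called in either direction. Pvalb was at 35.7 to 47.8 CPM over controls and 1.29 to 2.58 CPM over mutants (log2 fold change -4.48, SE 0.23), and Syt2 (-2.18) and Kcnc1 (-1.40) followed. The other 5 were not called and did not share a direction. Kcnc2 (0.32), Erbb4 (0.26) and Kcns3 (0.23) lay above 0, and Tac1 (-0.0044) and Pthlh (-0.28) below. The summed level of the 8, 4325 to 7046 CPM over controls and 5540 to 6736 CPM over mutants, is mostly that of Erbb4 and Kcnc2, which were not called. Of 6 somatostatin markers 3 were called, Sst, Crhbp and Calb1, all higher, and the sum was 860.6 to 1002 CPM over controls and 1407 to 1721 CPM over mutants. The VIP list had 1 lower and 2 higher of 6, and the LAMP5 list 1 lower and 1 higher of 6. For cells outside the sort, edgeR's test called 2 of 31 tested markers, the oligodendrocyte gene Mog (0.93) and the astrocyte gene Slc4a4 (-0.54). DESeq2 and limma-voom each called 3 of the 31, of which 1 was a microglial marker. The microglial gene Csf1r was higher without overlap of the groups in CPM (0.61, edgeR adjusted p 0.055). Summed levels in controls and mutants were 343.4 to 512.2 and 286 to 364.7 CPM for glutamatergic, 167.2 to 204.7 and 185 to 218.5 CPM for oligodendrocyte, and 234.5 to 308 and 183.3 to 206.7 CPM for astrocyte markers. They were 66.5 to 82.4 and 80.5 to 85.8 CPM for microglial, and 44.9 to 94.8 and 46.2 to 67.5 CPM for endothelial markers. Most of the astrocyte sum is Slc4a4, at 167.6 to 248.1 CPM over controls and 133.4 to 156.9 CPM over mutants. Gfap and P2ry12 are listed at 0. The part of these cell classes in the values of the 3 members was not tested.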

How the data were processed

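The tables deposited by the authors hold raw read counts for each gene and no header. The labels' protocols name SMART-Seq v4 cDNA, Nextera XT libraries and paired 75-base reads, and no molecular identifiers. The submitters' processing notes name Bowtie2 2.5.3 and the builds mm10 and GRCm38. The counting program and its use of strand and introns are not given in the sources used here. All 55450 gene identifiers were found in GENCODE M21 (GRCm38), which gave symbols and coordinates.

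Genes passing filterByExpr (least count 10, least total 15; 16448 genes) were fitted in edgeR 4.0.16 (R 4.3.3) with TMM scaling and a robust quasi-likelihood model of group alone, two-sided, Benjamini-Hochberg adjusted over all tested genes and called under 0.05. The SE is the log2 fold change over the root of F. Log2 profiles used a prior count of 2. The mutant 10 table, keyed by symbol, served only for comparison with mutant 7. The fit was tested on simulated counts. Alternatives used DESeq2 1.42.0, limma 3.58.1, no filter, a lowess offset (span 0.3) on genomic length, and fewer libraries.

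The members and gene lists were chosen with earlier results of these data known. Named genes were the members, their paralogs, called list genes, the 5 closest profiles and the chromosomal neighbours.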

Additional observations from a re-analysis of the deposited data

How the results depend on the processing

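The log2 fold changes of the 3 members kept their direction in the 14 other fits and moved by less than 1 SD of log2 CPM pooled over both groups. Without 1 library they ran from -2.85 to -2.60 for Frmpd1, from -1.69 to -1.62 for Gfpt2 and from -1.69 to -1.60 for Adgra3. Counts of called genes depended on the libraries. Over all genes the count was 1549, and 734 to 2347 without 1 library, with the ends without mutant 7 and without control 4. It was 2753 with the offset for genomic length and 2778 without controls 1 and 4, a fit chosen after seeing the data. In the 7 lists it was 12, and 3 to 19 without 1 library, 20 with the DESeq2 Wald test, 22 with the length offset and 25 without controls 1 and 4. By list, leaving out 1 library gave 0 to 2 called genes for UDP-GlcNAc use, 1 to 3 for glucose entry, 0 to 6 for the AGS3 and LGN complex, 0 to 1 for the FERM family, 1 to 4 for adhesion receptors and 1 to 7 for planar polarity. The DESeq2 Wald test gave 5 for the AGS3 and LGN complex, 4 for adhesion receptors and 7 for planar polarity. The length offset gave 1 for the hexosamine pathway, 6 for the AGS3 and LGN complex and 5 for adhesion receptors. Without control 4 and mutant 8 the count was 0 for UDP-GlcNAc use, 1 for the FERM family and 1 for planar polarity. Without controls 1 and 4 it was 2 for UDP-GlcNAc use, 7 for the AGS3 and LGN complex, 2 for the FERM family and 5 for adhesion receptors. The cause of these changes was not tested. The genes most like each member were shared with the ranking by Pearson's correlation in 2 of 5 for Frmpd1, 2 of 5 for Gfpt2 and 1 of 5 for Adgra3. No paired analysis was possible because controls (1 to 4) and mutants (6, 7, 8 and 10) share no replicate number. A library held 853 to 1861 reads of a member in controls and 192 to 424 in mutants, so counting error relative to the value was larger in mutants.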
